A study of Mus musculus with 13 samples.

Results

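RNA from whole brains was compared between 7 mice that lacked a wild-type allele of Adar and 6 mice that kept at least 1, together all 13 libraries measured. The genotype label alone set which members stood on which side. The split itself was chosen with earlier results of these data known, and as one that matches the lower weaning weight in the labels. The side with no wild-type allele holds P195A/P195A (P195A on both alleles, n = 4) and P195A/- (P195A opposite an allele written as -, n = 3). The side with a wild-type allele holds wild type (n = 3) and P195A/+ (P195A on 1 allele, n = 3). All animals are C57BL/6 mice, with 5 females and 2 males on the side without a wild-type allele and 4 females and 2 males on the other. A longer label of the P195A/- animals writes P195A on both sides and adds AdarKO/+, without explanation, so their exact construction is not known here. Ages were 42 days in P195A/-, 42 or 48 days in P195A/P195A, 43 days in P195A/+, and 48, 48 and 74 days in wild type, so age and genotype cannot be fully told apart. The labels do not say which animals were littermates, and the p-values measure the spread between these animals.

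Adar encodes ADAR1, an enzyme that changes adenosine to inosine in double-stranded RNA, and inosine is read as guanosine in sequencing. P195A lies in the domain that binds the left-handed Z form of nucleic acids and is found only in the long, interferon-induced form of the enzyme. Editing of the cell's own RNA keeps sensors such as MDA5 from responding to it, and loss of that restraint is known to raise interferon-stimulated genes.

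The split of the mice is also a split by body weight. Weaning weights without a wild-type allele were 6.4, 8.4, 7.3 and 8.0 g in P195A/P195A and 7.9, 8.2 and 8.4 g in P195A/-. With a wild-type allele they were 9.0, 10.5 and 10.3 g for wild-type animals and 9.0, 10.3 and 10.7 g for P195A/+ animals. No animal of one side reached the weight range of the other. Age at weaning also differed, from 19 to 24 days with a wild-type allele (mean 20.83) and from 19 to 20 days without (mean 19.71). The heavier side was thus weaned later on average, and the part of weaning age in the weight split was not tested. A gene that follows weight across all 13 mice therefore cannot be told apart from one that follows genotype, and only weight differences inside a genotype bear on weight by itself.

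Library totals ran from 13539148 to 20688387 gene counts without a wild-type allele and from 17891377 to 22399005 with one. The side means were 16830000 and 19980000 (exact two-sided permutation p = 0.0198; adjusted 0.0594 over 3 library measures). Reads at known editing sites inside introns, divided by reads at such sites in 3' UTRs, give a measure of unspliced RNA in a library. This ratio was 2.156, 1.782 and 1.93 in wild-type brains, 1.93, 2.906 and 1.788 in P195A/+ brains, 2.663, 3.761, 1.448 and 2.441 in P195A/P195A brains and 3.277, 2.63 and 2.337 in P195A/- brains. It was higher on the side without a wild-type allele except in P195A/P195A replicate 3, which had the lowest of all, while P195A/+ replicate 2 stood among the other side. The side means, 2.65 ± 0.732 (SD, n = 7) and 2.08 ± 0.426 (n = 6), had a difference that did not pass (exact two-sided permutation p = 0.122; adjusted 0.183). P195A/P195A replicates 2 and 3 also stood at the 2 ends of the first principal component, at 53.5 and -49.1. Results that rest on replicate 3 are given with and without it.

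**Figure D1:**
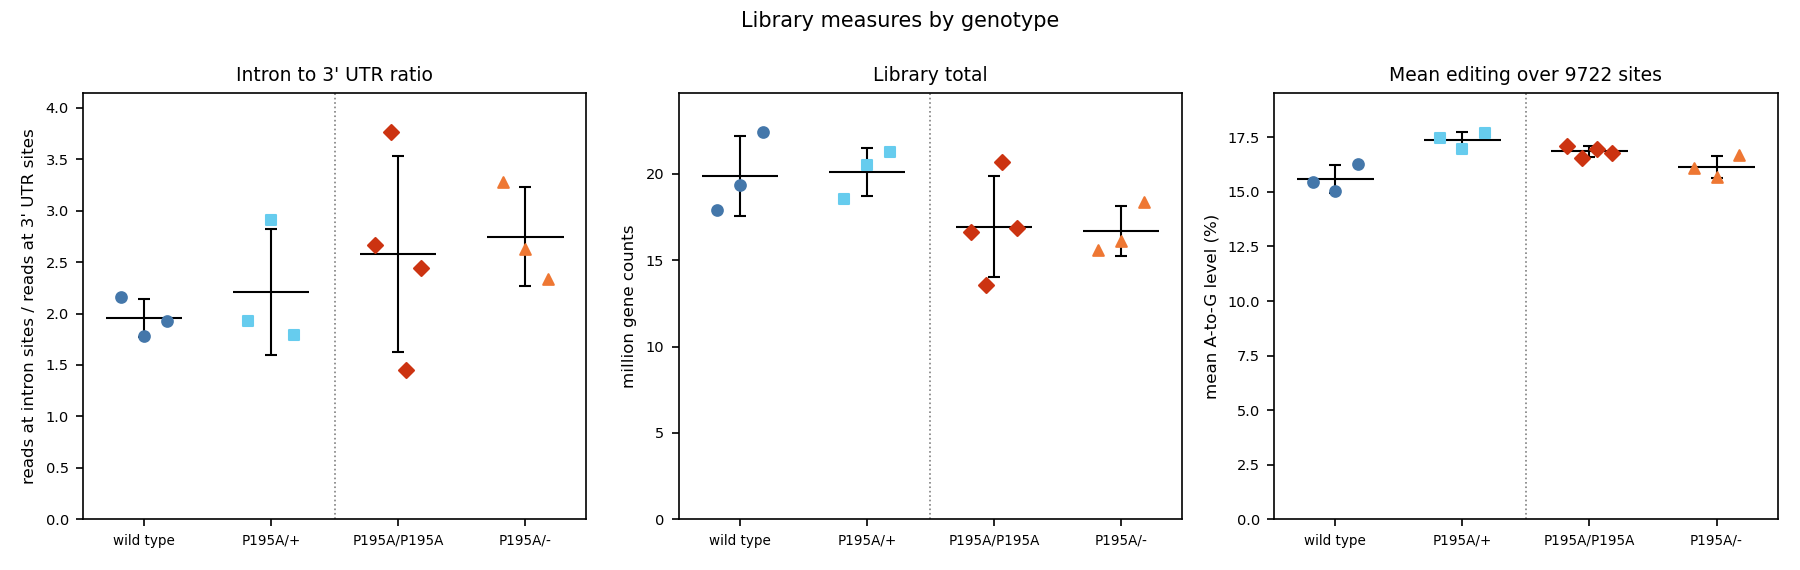
Ratio of reads at intron sites to reads at 3' UTR sites, library total in gene counts, and mean A-to-G level in percent, by genotype; points are libraries, lines are means and bars are SD. The lowest ratio, 1.448, belongs to P195A/P195A replicate 3, and P195A/+ replicate 2 has 2.906.

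Over all 13 libraries, 3 of 19962 genes passed between the sides (0.015%), all of them higher without a wild-type allele, by edgeR's quasi-likelihood test with a Benjamini-Hochberg adjusted p under 0.05. They were Ubap2l, Atp8b2 and Rps3a3. Ubap2l and Atp8b2 lie on chromosome 3 near Adar, and no gene passed in the lower direction (0.0%). Without adjustment, p was under 0.05 for 2452 genes (12.3%), with 1125 (5.64%) higher in the absence of a wild-type allele and 1327 (6.65%) lower. DESeq2 passed 209 of the 14146 genes to which it gave an adjusted p, 66 higher and 143 lower. That is a smaller set of genes than edgeR's. By limma-voom 6 of 19962 passed. By genotype pair, 10 genes passed in P195A/P195A against wild type (0.0501%) and 4 against P195A/+ (0.02%), and 7 in P195A/- against wild type (0.0351%) and 6 against P195A/+ (0.0301%). The 4 genes of P195A/P195A against P195A/+ became 0 when any wild-type or P195A/+ library, or P195A/P195A replicate 1 or 4, was left out, 2 without P195A/- replicate 3, and 11 without P195A/P195A replicate 3. The 6 of P195A/- against P195A/+ became 85 without P195A/P195A replicate 3, 11 without its replicate 2 and 3 without P195A/- replicate 3. Within the sides, 2 passed between P195A/+ and wild type (0.01%) and 8 between P195A/- and P195A/P195A (0.0401%).

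Ubap2l encodes a ubiquitin-associated protein that takes part in stress granules. It was the 1 gene that met the rule for differing alike in both genotypes of each side. By this rule a gene passes between the sides, has the same sign in all 4 genotype pairs between them, and passes in neither pair within a side. Not passing within a side does not show that its genotypes are alike. Ubap2l lay near Adar. It lies at 90000140 to 90052628 of chromosome 3 in GRCm38, on the minus strand, where its start overlaps 4933434E20Rik. Its levels were 93.9, 94.2 and 92.2 CPM (counts scaled to a common library size) in wild type and 127, 151 and 134 in P195A/+ brains. They were 205, 183, 155 and 194 CPM in P195A/P195A and 165, 149 and 153 in P195A/- brains. The ranges of the sides met only at P195A/- replicate 2 and P195A/+ replicate 2. The log2 fold change between the sides was 0.58 (SE 0.067; edgeR adjusted p = 0.00366). Against wild type it was 0.98 in P195A/P195A brains and 0.74 in P195A/- brains, and against P195A/+ 0.42 and 0.18. P195A/+ stood 0.56 above wild type, close to the side difference in size, without passing (edgeR adjusted p = 0.206). When P195A/P195A replicate 3 was left out, Ubap2l still passed (0.62, edgeR adjusted p = 1.27e-04) and no longer met the rule for both genotypes alike. Nor did it meet that rule with no filter on low counts, by DESeq2, in females only or with the intron to 3' UTR ratio as a covariate. With a term for age class, 1 coefficient per side and without the 74-day animal, Ubap2l had 0.51 and did not pass (edgeR adjusted p = 0.561). With 1 coefficient per side and no age term it did not pass either.

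Atp8b2, a phospholipid flippase gene at 89939481 to 89963508 of chromosome 3, had 118, 108 and 121 CPM in wild type and 195.1, 183 and 183 in P195A/+ brains. It had 225, 225, 228 and 242 CPM in P195A/P195A and 189, 175 and 155 in P195A/- brains. Wild type stood below every other library, and P195A/- overlapped P195A/+. The log2 fold change between the sides was 0.44 (SE 0.0555; edgeR adjusted p = 0.00442). It reversed in P195A/- against P195A/+, at -0.11, and P195A/+ itself passed against wild type, at 0.69 (adjusted p = 0.00236). Atp8b2 thus did not have 1 sign in all 4 pairs.

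Rps3a3 is annotated as a processed pseudogene (chromosome 13, 108670603 to 108671397) and is a near-identical copy of Rps3a1, so its counts are uncertain. Its level was 29.1, 30.9 and 39.5 CPM in P195A/- and between 0.0599 and 0.546 CPM in each of the other 10 libraries. Between the sides the log2 fold change was 3.43 (SE 0.426; edgeR adjusted p = 0.00442), with 7.56 in P195A/- against wild type and 0.20 in P195A/P195A against wild type. High counts were confined to the 3 P195A/- libraries.

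Adar itself, at 89715022 to 89753446 of chromosome 3, checks the genotypes only in part, since the P195A allele is transcribed. It had 187, 165 and 189 CPM in wild type, 242, 245 and 232 in P195A/+ brains, 346, 282, 340.3 and 322 in P195A/P195A brains and 196, 204 and 204 in P195A/- brains. P195A/- lay between wild type and P195A/+, and P195A/P195A above all others. The difference between the sides was 0.29 on the log2 scale and did not pass (edgeR adjusted p = 0.0977). Without P195A/P195A replicate 3 it was 0.28 and passed (edgeR adjusted p = 0.0236), without meeting the rule for both genotypes alike. The sign differed between the pairs, with 0.84 in P195A/P195A against wild type and -0.25 in P195A/- against P195A/+, and P195A/- fell below P195A/P195A with a log2 fold change of -0.68 (adjusted p = 7.73e-04). Adarb1, which encodes the second active editing enzyme, had a log2 difference of -0.03 between the sides (adjusted p = 0.868).

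The list of genes next to Adar includes Adar itself. Its 14 measured members were all higher without a wild-type allele, with a median log2 fold change of 0.373 against 0.0154 over all genes. Of these, 2 passed (0.015% of all genes) and 11 had an unadjusted p under 0.05 (12.3% of all genes). Ube2q1, a ubiquitin-conjugating enzyme gene, had 55.7 to 60.2 CPM in wild type, 91.7 to 98.6 in P195A/+ brains, 83.6 to 135 in P195A/P195A brains and 104 to 106 in P195A/- brains, a side difference of 0.56 (edgeR adjusted p = 0.0556). Tpm3, a tropomyosin gene, had 0.53 and Il6ra, the interleukin 6 receptor gene, 0.66 (adjusted p = 0.087 and 0.0977). The median over the list was 0.868 in P195A/P195A against wild type and 0.288 against P195A/+, and 0.496 in P195A/- against wild type and -0.0409 against P195A/+. In both genotypes the median against wild type was larger than that against P195A/+; the difference was not tested.

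**Figure D2:**
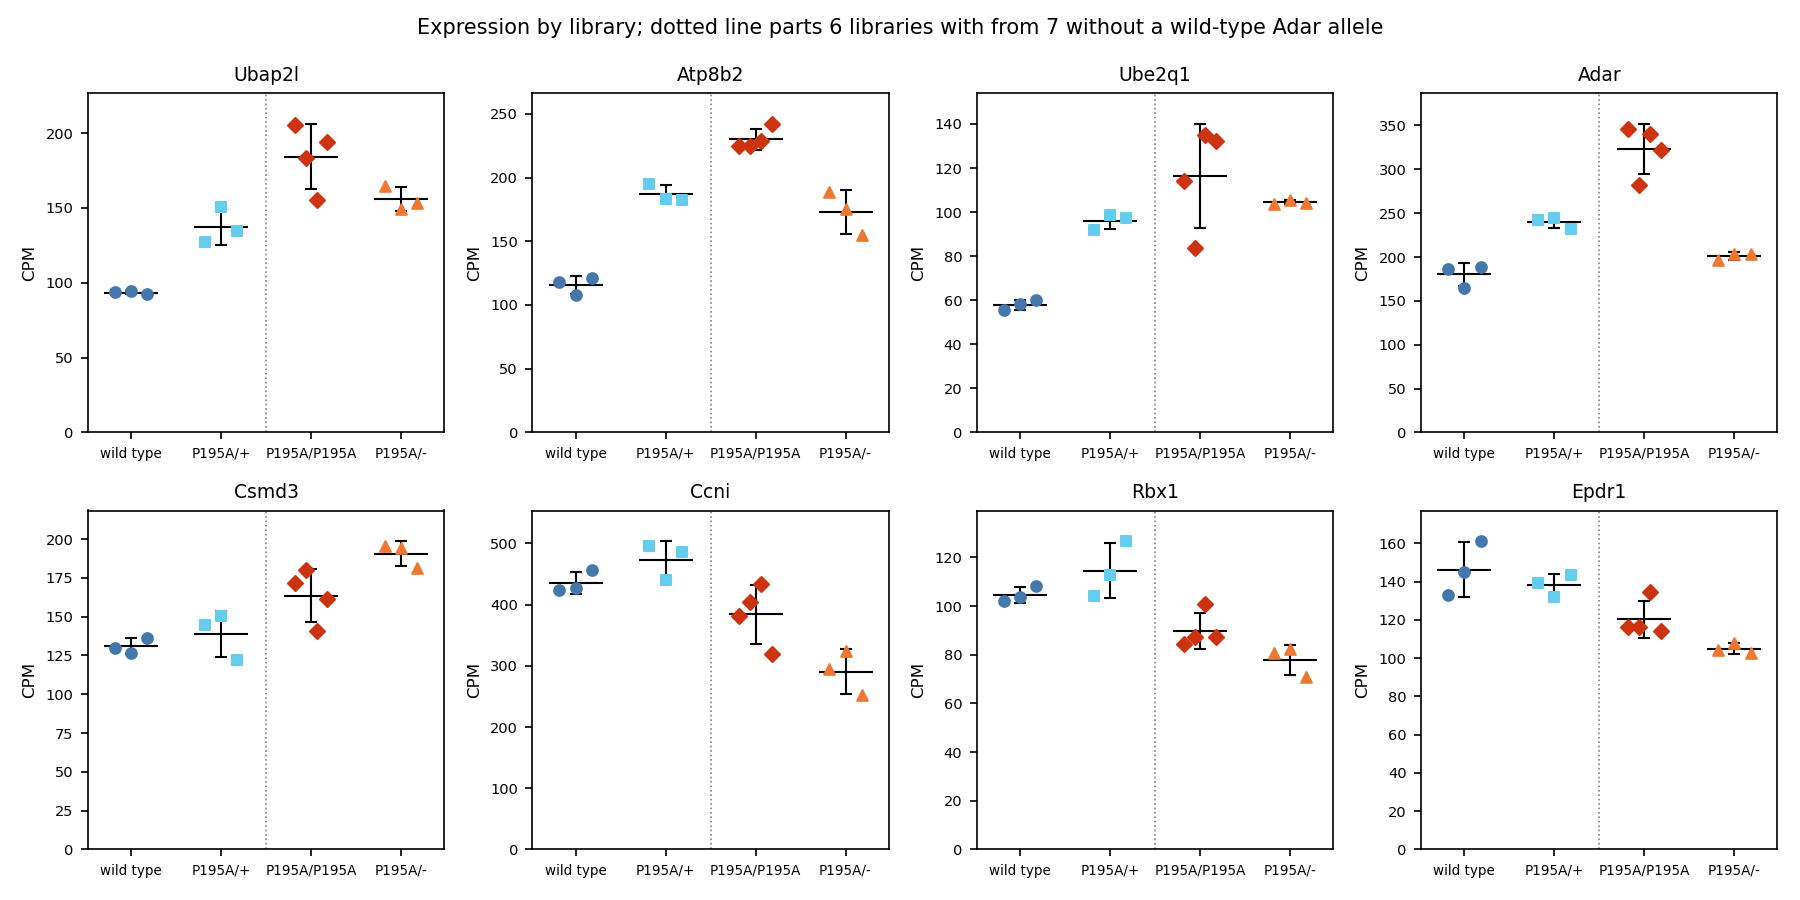
CPM by library and genotype for 8 genes; points are libraries, lines are means, bars are SD, and the dotted line separates the sides. The upper row holds Adar and 3 genes near it, where P195A/+ already lies above wild type; in the lower row wild type and P195A/+ lie together, and P195A/P195A replicate 3 is nearest to them for Ccni, Rbx1, Epdr1 and Csmd3.

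Among all genes, 60 had no overlap between the libraries of the sides (0.301%), 26 higher (0.13%) and 34 lower (0.17%). Of 18 genes with an adjusted p under 0.1 (0.0902%), 15 had the same sign in all 4 pairs (45.8% of all genes), and 4 had no overlap, Il6ra and Plekhg5 higher and Rbx1 and Scn4b lower. The same contrast chose these genes, so these counts are a description. Rbx1, a subunit of cullin ubiquitin ligases, had 102, 104 and 108 CPM in wild type and 104, 113 and 127 in P195A/+ brains. It had 84.4, 87.1, 101 and 87.2 CPM in P195A/P195A and 80.7, 82.3 and 70.8 in P195A/- brains. Every library without a wild-type allele lay below every library with one, and P195A/P195A replicate 3 was nearest to them. The log2 fold change was -0.39 (SE 0.0652; edgeR adjusted p = 0.0699).

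Scn4b, which encodes a sodium channel beta subunit, likewise did not overlap. It ran from 261 to 285 CPM with a wild-type allele and from 192 to 254 without. Its 4 pair differences were -0.32 in P195A/P195A against wild type, -0.33 against P195A/+, -0.31 in P195A/- against wild type and -0.32 against P195A/+. Between the sides it had -0.32 (SE 0.0607; edgeR adjusted p = 0.0977) and so did not pass.

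Ccni, the cyclin I gene, had 424 to 457 CPM in wild type and 439.8 to 496 in P195A/+ brains, against 319 to 433 in P195A/P195A brains and 252 to 324 in P195A/- brains. The log2 fold change was -0.44 (SE 0.0722; adjusted p = 0.0573), and Ccni passed in P195A/- against P195A/+ (-0.71, adjusted p = 0.019). Epdr1, an ependymin-related gene, had -0.34 (adjusted p = 0.0813) and Serpini1, the neuroserpin gene, -0.37 (adjusted p = 0.0844). Csmd3, a large membrane protein gene of neurons, had the opposite sign, 0.39 (SE 0.0664; adjusted p = 0.0734), with 126 to 136 CPM in wild type, 122 to 150 in P195A/+ brains, 140 to 180 in P195A/P195A brains and 181 to 196 in P195A/- brains. For Epdr1 and Serpini1, P195A/P195A replicate 3 lay within the range of the side with a wild-type allele, at 135 and 364 CPM.

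Age classes that hold both sides were also read separately. At 42 to 43 days, where 3 P195A/+ animals meet 5 without a wild-type allele, Rbx1 ran from 104 to 127 CPM with and 70.8 to 87.1 without, and Csmd3 from 122 to 150 and 172 to 196. At 48 days, where 2 wild-type animals meet 2 of P195A/P195A, Rbx1 ran from 102 to 104 and 87.2 to 101, and Csmd3 from 126 to 130 and 140 to 161. Those 2 genes and Scn4b had no overlap in either class. At 42 to 43 days, Ubap2l (127 to 151 CPM with and 149 to 205 without a wild-type allele), Atp8b2, Ube2q1 and Adar overlapped between the sides, and at 48 days they did not. At 48 days, Ccni (424 to 427 and 319 to 433), Epdr1 (133 to 145 and 114 to 135) and Serpini1 (344 to 380 and 288 to 364) overlapped, as did Mageb16, and at 42 to 43 days they did not. Rps3a3 overlapped in both classes. No test was run within a class, and age was not separated from genotype. With age class as a term and the 74-day animal left out, 0 genes passed by edgeR and 1641 had an unadjusted p under 0.05. This fit used 1 coefficient per side in place of 1 per genotype. That change alone, with all libraries in and no age term, also gave 0 genes. The part of age in the loss therefore cannot be read from this fit.

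Leaving out P195A/P195A replicate 3 changed the count of passing genes from 3 to 491 (2.47% of 19891 tested), of which 168 were higher (0.845%) and 323 lower (1.62%). Of the 491 genes, 484 met the rule for both genotypes alike and 239 had no overlap between the remaining libraries. With all 13 libraries in, 0.301% of all genes had no overlap. That share comes from another set of libraries and cannot be set against the 239. The shares over all genes without replicate 3, for no overlap and for the rule, are not given here. All 491 had the same sign with all libraries in, and 467 had an unadjusted p under 0.05 there. Those libraries include the ones that chose the 491, so these counts are a description and no separate support. The omitted library lay nearer to the mean of the side with a wild-type allele for 90% of them. Leaving it out is what let these genes pass, so this share follows in large part from that choice and is no separate support. Among libraries with a wild-type allele the share ran from 70.9% in P195A/+ replicate 2 to 98.2% in P195A/+ replicate 3. The share over all genes is not given here. DESeq2 on all 13 libraries passed 209 of 14146 genes, 166 of them among the 491, and it too used the libraries that chose the 491. The other single omissions gave 3 genes each, except 10 without P195A/P195A replicate 2 and 5 without P195A/- replicate 2.

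**Figure D3:**
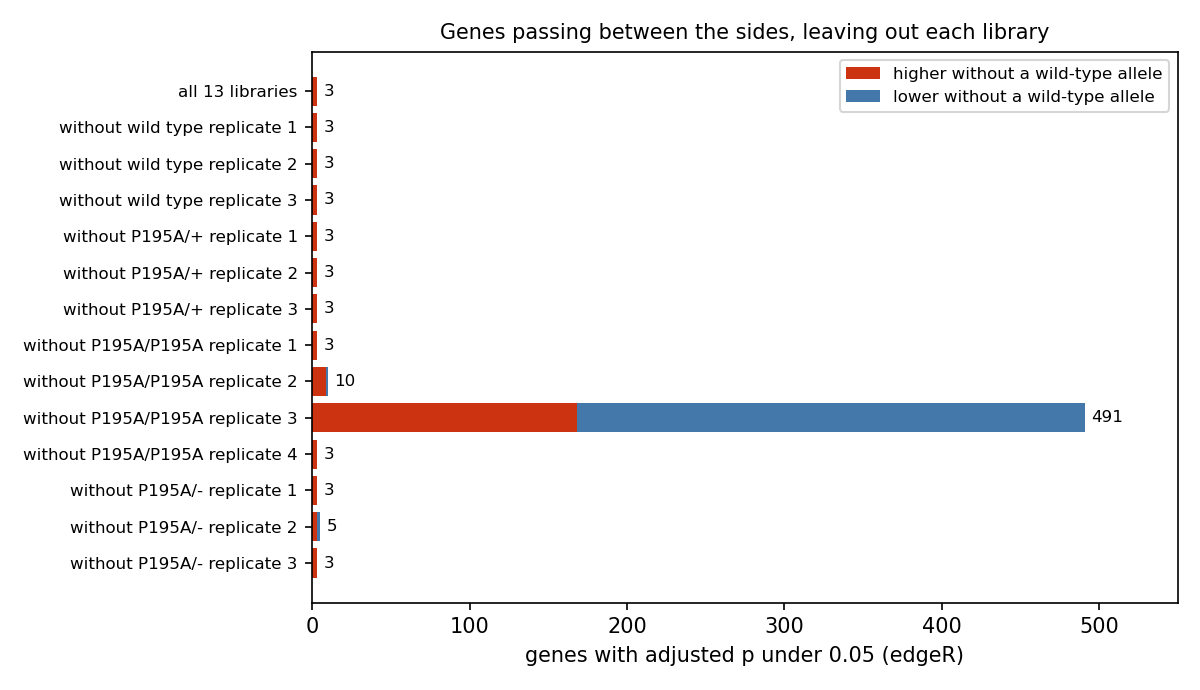
Number of genes with an edgeR adjusted p under 0.05 between the sides when each library is left out, split by direction. Without P195A/P195A replicate 3 the count is 491, against 3 with all 13 libraries.

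The intron to 3' UTR ratio moved with this result. With the ratio as a covariate and replicate 3 left out, 1 gene passed, 404 of the 491 had an unadjusted p under 0.05, and all 491 kept their sign. Their median size fell from 0.303 to 0.249 on the log2 scale while the median standard error rose from 0.0636 to 0.082. With all libraries the count went the other way, from 3 genes without the covariate to 7 with it, all higher. The lower genes were abundant, with a median of 136 CPM against 11.9 over all genes, and the higher genes stood at 16.4 CPM. The median longest transcript was 2894 bases for lower and 3693.5 for higher genes, against 3114 for all. The part of unspliced RNA in the result was otherwise not tested.

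Genes of named lists were among the 491, beside 1.62% of all genes passing lower and 0.845% higher. Lower without a wild-type allele were 4 of 15 astrocyte genes, Slc1a2 and Slc1a3, the glutamate transporters, Glul, glutamine synthetase, and S100b, a calcium-binding protein gene. Of 21 genes of the integrated stress response 2 were lower, Psat1 and Phgdh, enzymes of serine synthesis. From each of the next lists 1 gene was lower: Stard4, a carrier of cholesterol (of 24), Igfbp4, a binding protein of insulin-like growth factors (of 16), and Bcas1 of newly formed oligodendrocytes (of 13). Slc17a7, the vesicular glutamate transporter of cortical neurons (1 of 15), Fcrls of microglia (1 of 16), Slc6a13 of the meninges (1 of 14) and the ribosomal protein genes Rps2 and Rps3 also passed in the lower direction. Higher were 7 of 14 genes of the list of genes next to Adar: Ubap2l, Atp8b2, Ube2q1, Adar, Il6ra, Tpm3 and She. Also higher were 2 of 47 interferon-stimulated genes, Dhx58, an RNA sensor gene, and Ifi44. Dcx of migrating neuroblasts (1 of 16) and Adarb2 (1 of 14 genes of GABAergic interneurons) were higher too. With replicate 3 left out, Slc1a2 had -0.19 (edgeR adjusted p = 0.0361), Psat1 -0.38 (0.0396), Stard4 -0.30 (0.0323) and Dhx58 1.18 (0.0375). With all libraries these 4 had -0.18, -0.34, -0.31 and 1.13, and none passed (adjusted p = 0.2, 0.2, 0.136 and 0.18). In bulk tissue, fewer cells of a type and less RNA per cell cannot be told apart.

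Dhx58 was measured at low levels. It had 0.787, 0.368 and 0.587 CPM in wild type and 0.546, 0.677 and 0.571 in P195A/+ brains, against 2.16, 1.61, 1.33 and 1.47 in P195A/P195A brains and 0.934, 1.22 and 0.944 in P195A/- brains. No library of one side reached the other, at levels near 1 CPM. S100b had 144 to 187 CPM with a wild-type allele and 127 to 147 without, an overlap of the lowest wild-type library with the highest P195A/- library. Dcx had 106, 103, 78.1 and 100.1 CPM in P195A/P195A and 57.2 to 69.6 in P195A/- brains, against 54.6 to 76.0 with a wild-type allele. Dcx and Ifi44 passed without replicate 3 but were not alike in both genotypes.

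With all 13 libraries in, no member of any of the 30 lists passed other than Ubap2l and Atp8b2. Interferon-stimulated genes had a median log2 fold change of 0.184, with 38 of 47 measured genes higher, against 53.2% of all genes. An unadjusted p under 0.05 was reached by 7 of the 47, all higher, beside 12.3% of all genes in either direction and 5.64% higher. The medians by pair differed in sign. The median was -0.149 in P195A/P195A against wild type and 0.0215 against P195A/+, and 0.341 and 0.599 in P195A/- brains. Genes of the integrated stress response, which amino acid shortage and translational arrest switch on, had medians of -0.156, -0.112, -0.159 and -0.117 in the same order of pairs, with 16 of 21 lower and 5 at an unadjusted p under 0.05, all lower (6.65% of all genes were lower at that p). Cholesterol synthesis genes had 21 of 24 lower at a median of -0.0962, with pair medians between -0.151 and -0.0669. Astrocyte genes had 12 of 15 lower at -0.102, and cerebellar neuron genes 13 of 14 lower at -0.204.

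Neuroblast and progenitor genes were higher in 14 of 16, at a median of 0.245. Myelin genes were at -0.00807 and microglia genes at 0.0137. Summed over its members, the cerebellar list ran from 1695 to 3412 CPM without and from 2629 to 3315 with a wild-type allele, and the astrocyte list from 8514 to 9626 and from 9487 to 10610. Blood cell genes, such as those of haemoglobin, had a median of -0.548 over 8 genes, with sums from 240.1 to 920.2 and from 310.3 to 1204 CPM. Their part, and that of the amount of cerebellum in a sample, in the other lists was not tested. The 13 mitochondrial genes had a median of 0.37, and P195A/- replicate 3 had the largest mitochondrial share, 1.57% of counts.

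**Figure D4:**
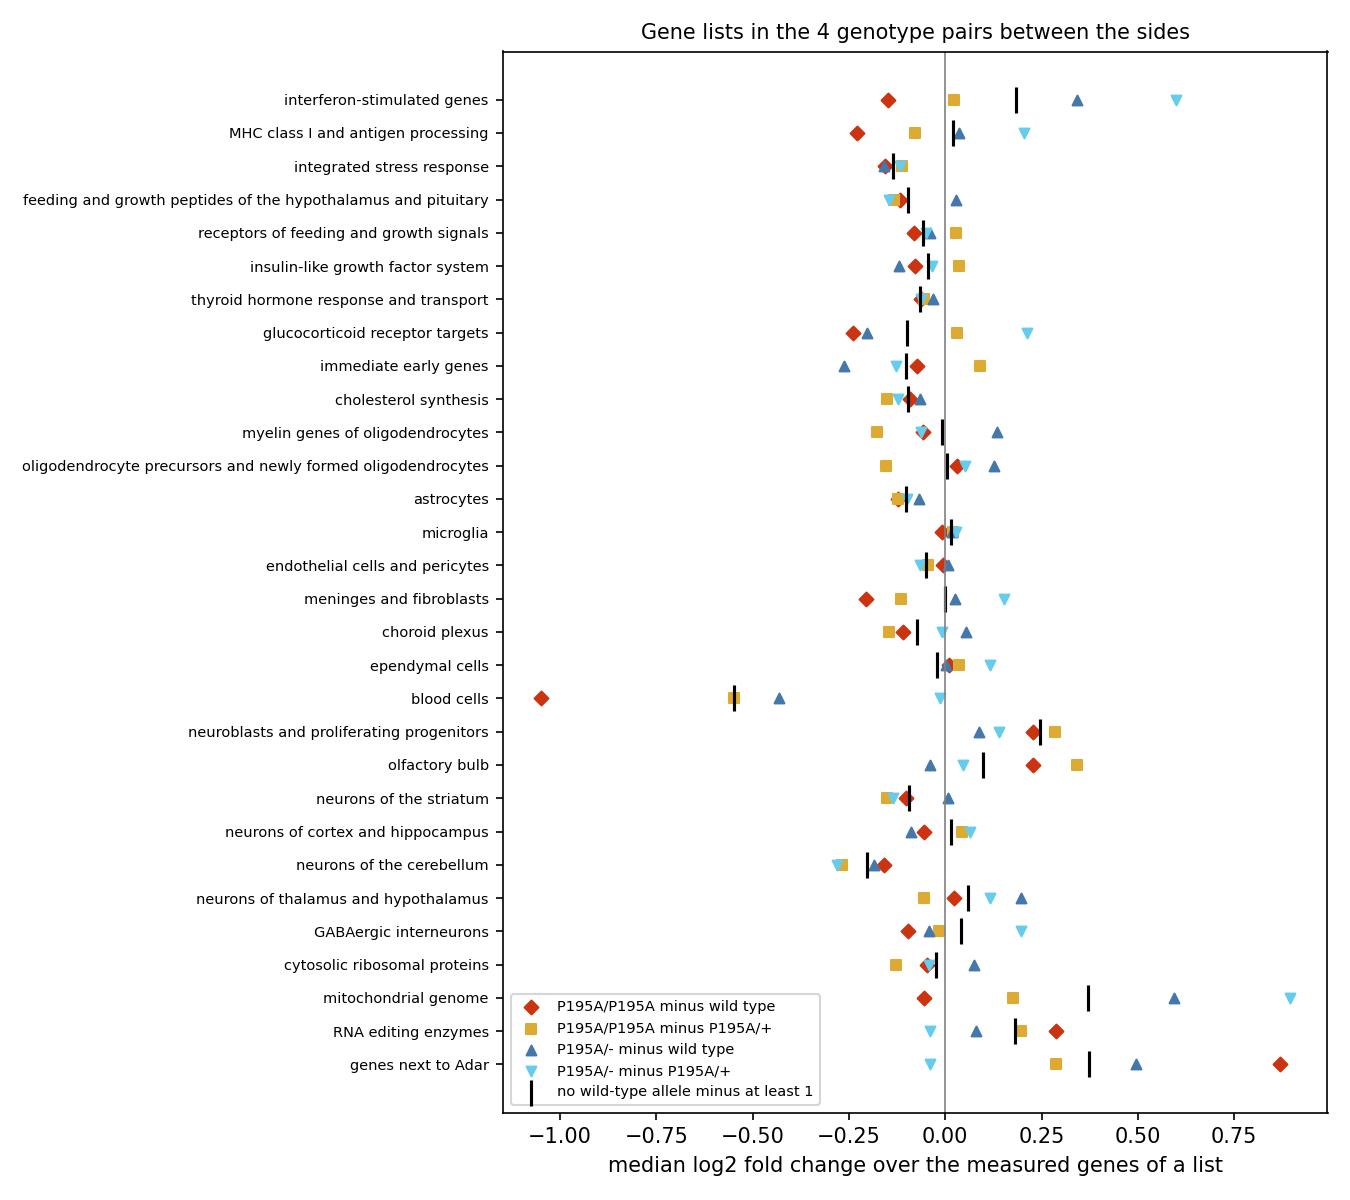
Median log2 fold change over the measured genes of each list in the 4 genotype pairs between the sides (symbols) and between the sides (bar). Symbols lie close together for the integrated stress response and astrocytes, and from -0.149 to 0.599 for interferon-stimulated genes.

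Whether the genotypes of a side differ alike was also read in animals that do not overlap. Of 182 genes with an unadjusted p under 0.01 in P195A/P195A against wild type, 67.6% had the same sign in P195A/- against P195A/+, where 59.4% of all genes did. In reverse it was 71.3% of 679 genes. Of 171 genes chosen in P195A/P195A against P195A/+, 56.7% had the same sign in P195A/- against wild type, below the 61.3% of all genes, and in reverse 80.4% of 986 genes did. The same sign with an unadjusted edgeR p under 0.05 in the second pair was held by 8.79%, 6.19%, 15.8% and 6.69%, in that order. Over all genes these shares were 8.2%, 3.43%, 11.2% and 2.93%. The opposite sign at that p was held by 13, 16, 16 and 16 of the chosen genes. The same-sign shares for P195A/P195A as the choosing genotype rose to 82% and 77% without its replicate 3, where the share over all genes is not given. Each pair was fitted on its own libraries, and these shares carry no test.

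No gene passed edgeR's test of a slope on weaning weight within genotype. Of 19962 genes, 0 passed (0.0%), and 451 reached p under 0.05 without adjustment (2.26%), 248 with a positive slope (1.24%) and 203 with a negative one (1.02%). That count of 451 became 1210 with the replicate number as a block, where 2 genes passed, and 689 with the intron to 3' UTR ratio as a covariate. With weaning age as a covariate it was 396, and 0 genes passed. DESeq2 passed 1 gene and limma-voom 0. Bmp4, a growth factor gene expressed by newly formed oligodendrocytes, had the smallest p, with a slope of -1.04 log2 per g (SE 0.171; edgeR adjusted p = 0.203). It had 5.13 and 5.45 CPM in the lightest P195A/+ and P195A/P195A animals and 1.06 to 2.64 in the other 11. Its difference between the sides was 0.00208. Fkbp5, a target of the glucocorticoid receptor, had a slope of 0.26 (SE 0.0722) and a side difference of 0.07, and neither passed.

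The side difference and the slope inside a genotype were then set side by side. Of the 2452 genes with an unadjusted p under 0.05 between the sides, 46.7% had a slope in the direction of the side difference, against 45.8% of all genes, and 1.71% had an unadjusted p under 0.05 for weight, against 2.26%. Only 42 genes had an unadjusted p under 0.05 in both, and 17 of these had the slope that the lighter side would give. Among the 17, named here after their values were seen, Fancc, a DNA repair gene, had means of 20.6 CPM with and 15.2 without a wild-type allele and a slope of 0.21 log2 per g, and Cth, the gene of cystathionine gamma-lyase, had 4.29 and 3.14 CPM and a slope of 0.29. None passed either test. Ubap2l had a slope of -0.0023 log2 per g (SE 0.0532).

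Pituitary hormone genes had large positive slopes and were singled out after their values were seen. Gh, growth hormone, had 3.25 log2 per g and Pomc, the precursor of melanocortins, 2.35, at unadjusted edgeR p of 0.0361 and 0.0267 (adjusted p = 1.00 for each). Gh ran from 0.187 to 769 CPM across the libraries, with 276 in wild-type replicate 2, 769 in P195A/+ replicate 3 and 194 in P195A/P195A replicate 4. Pomc, Tshb and Cga were high in the same 3 libraries. No side held them alone, and the amount of pituitary in a sample was not tested.

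The 10 genes with the smallest p and the mean editing level were also correlated with weaning weight inside each side, 22 relations in all. For Epdr1 the Pearson r was 0.419 with a wild-type allele (n = 6; exact permutation p = 0.389) and -0.485 without (n = 7; exact permutation p = 0.288), and Spearman's rho was 0.441 and -0.378 (exact permutation p = 0.411 and 0.405). Without the 2 animals farthest from the median weight, r was -0.0967 and 0.098. For Rbx1 r was 0.648 (exact permutation p = 0.139) and -0.398 (exact permutation p = 0.334), with rho 0.588 and -0.36 (exact permutation p = 0.233 and 0.426), and r without those 2 animals was 0.629 and -0.327. After adjustment over the 22 relations, 0 had an adjusted p under 0.05, and the smallest adjusted p was 0.625 for r and 0.717 for rho.

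**Figure D5:**
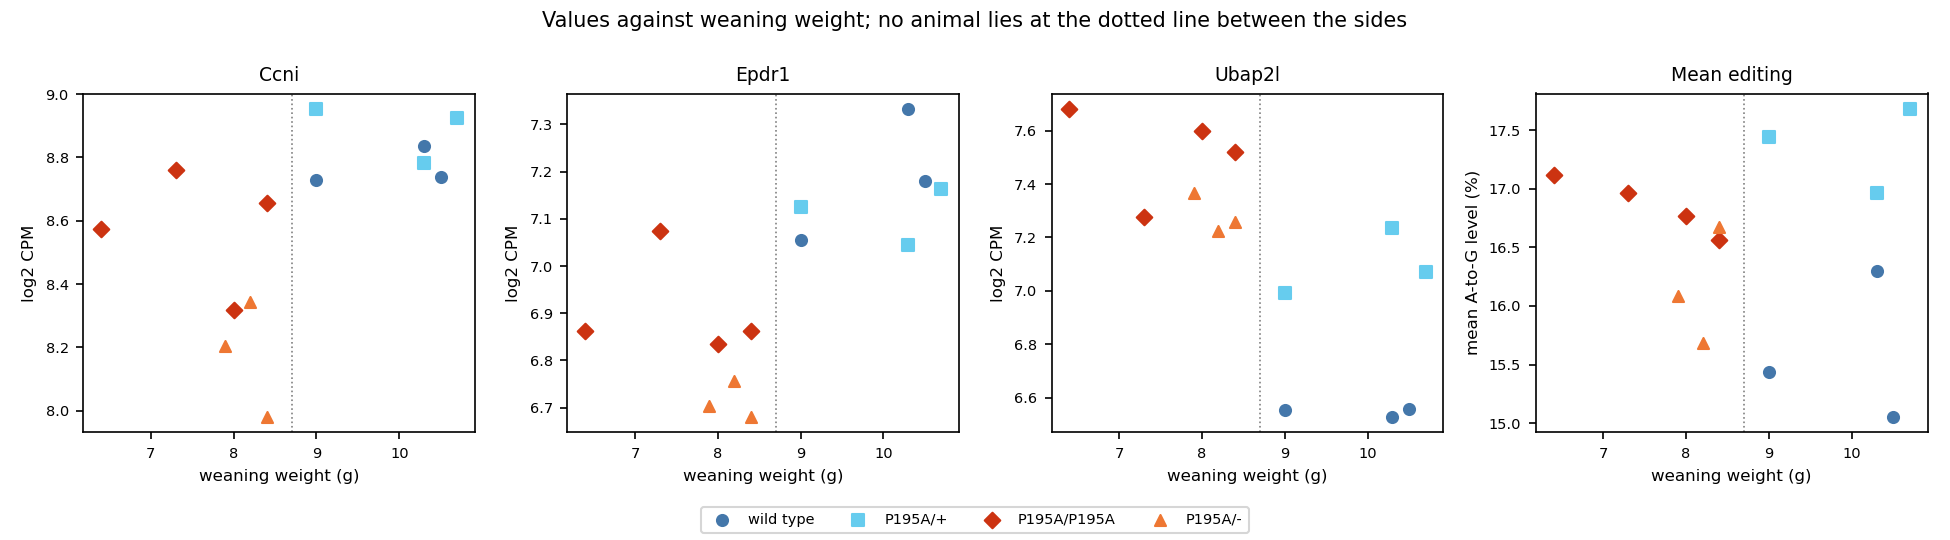
Log2 CPM of Ccni, Epdr1 and Ubap2l and mean A-to-G level in percent against weaning weight in g; points are animals, and the dotted line lies between the sides. No animal of one side reaches the weights of the other, and 0 of 22 relations inside a side passed.

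Editing was read as the share of G among A and G reads at known sites. Its mean over 9722 sites was 15.4, 15.1 and 16.3% in wild-type brains, 17.4, 17.0 and 17.7% in P195A/+ brains, 17.1, 16.6, 17.0 and 16.8% in P195A/P195A brains and 16.1, 15.7 and 16.7% in P195A/- brains. The lowest and the highest value both lay on the side with a wild-type allele, in wild type and P195A/+, and the range of the other side lay between them. The side means were 16.55 ± 0.503% (SD, n = 7) and 16.48 ± 1.07% (n = 6), a difference of 0.0721 percentage points (exact two-sided permutation p = 0.875). By site, 0 of 9722 passed edgeR's quasi-likelihood test (0.0%), 423 reached p under 0.05 without adjustment (4.35%; 208 up and 215 down), and limma on logit levels passed 0. The depth per site had a library median of 19 to 37 reads, which limits what can be seen at a single site.

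Of the sites with the smallest p, 3 in genes are given as values only. At Pum2, an RNA-binding protein gene, a 3' UTR site (chromosome 12, position 8750269) had a mean of 4.3% with and 8.71% without a wild-type allele at a median depth of 113 reads. An intronic site of Frmd4a (chromosome 2, position 4095839) had 40.9% and 62.6%, with 21.4 to 66.7% by library on the first side and 58.8 to 69.2% on the second. In the opposite direction, an intronic site of Rfx7, a transcription factor gene (chromosome 9, position 72583455), had 56.1% and 35.3%, with 47.6 to 69.1% and 26.7 to 41.5% by library and so no overlap. Each of these 3 had an adjusted p of 0.92.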

How the data were processed

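The authors deposited expected counts per gene and tables of base counts at editing sites. The submitters' processing notes name fastp 0.19.5, Salmon, edgeR, JACUSA2 2.0.0-RC5 and mm10, without saying which step used which. No aligner, counting annotation or Salmon version was found in the sources. Of 54307 gene entries, 51482 matched GENCODE M21 (GRCm38) by ID, which gave symbols and positions.

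For the tests, expected counts were made whole numbers and entered into edgeR 4.0.16 (R 4.3.3; quasi-likelihood, robust, TMM, filterByExpr) over 13 libraries with 1 coefficient per genotype. The side difference is the mean of both genotypes without a wild-type allele minus the mean of the other 2. DESeq2 1.42.0 and limma 3.58.1 were alternatives. CPM uses TMM scaling, and log2 CPM a prior count of 2. Editing used 39309 sites common to 3 comparison tables, with at least 10 A plus G reads in every library and a pooled level of 1 to 99%. Permutation tests are exact and two-sided, over 1716 splits for side differences and over all pairings for correlations. The edgeR fits for side, weight and editing sites were run on simulated data with 200 known changes, and the other fits were not. Between the sides, 41% of changes of 0.5 log2 and 82% of 1 log2 were recovered. For weight it was 53% and 84% at 0.5 and 1 log2 per g. For editing sites it was 1% at 1 log2 odds and 53% at 2, with a spread that was set and not taken from the data. Small changes could thus be missed, most of all at editing sites. Python 3.11.15 with numpy 2.4.6, pandas 2.3.3, scipy 1.17.1 and matplotlib 3.10.9 was used. Members, lists and naming rule were chosen with earlier results of these data known. Named are Adar and Adarb1, the 5 smallest p in each direction for side and weight, 3 members with the smallest p per list, the genes next to Adar, and 5 sites in each direction; others are said to be chosen on sight or were among genes passing without P195A/P195A replicate 3.

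Alternatives were another scaling, no filter, other tools, covariates, age class, females only, thinning and each library left out.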

Additional observations from a re-analysis of the deposited data

Results flagged for a closer look

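Of 51 groups of values looked at for a library far from the rest, 6 values stood apart. The critical value used marks about 1 in 20 independent groups by chance; these groups share libraries and genes, so the 2 rates cannot be compared. P195A/P195A replicate 3 stood apart from the rest of its genotype for Rbx1 (100.7 CPM), Epdr1 (134.6 CPM) and Serpini1 (364.0 CPM), and for Epdr1 (134.6 CPM) also from the other 6 libraries without a wild-type allele. P195A/+ replicate 2 had an intron to 3' UTR ratio of 2.906, apart from the other 5 libraries with a wild-type allele. P195A/- replicate 3 had a mitochondrial share of 1.57%, apart from the other 6 libraries without one. Of the genes looked at by name, 3 differed between the genotypes of a side by edgeR's test: Adar with a log2 fold change of -0.681 in P195A/- against P195A/P195A, Rps3a3 with 7.36 in the same pair, and Atp8b2 with 0.693 in P195A/+ against wild type.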

How the results depend on the processing

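Counts of passing genes moved with the setting. The fit with age class as a term also used 1 coefficient per side in place of 1 per genotype, and left out the 74-day animal. Between the sides (3) they were 26 with no filter, 209 by DESeq2, 6 by limma-voom, 0 with 1 coefficient per side or with age class as a term, 7 with the intron to 3' UTR ratio as covariate, 6 with libraries thinned to the smallest total, 1 with that covariate and without P195A/P195A replicate 3, 126 without P195A/P195A replicates 2 and 3, and 3 to 491 leaving out each library. Genes alike in both genotypes of a side (1) were 22, 199 and 2 for no filter, DESeq2 and limma-voom, 2 with RLE, 2 in females, 3 with the covariate, 4 thinned, 0 with the covariate and without replicate 3, 119 without both, and 1 to 484 leaving out each library. P195A/P195A against P195A/+ (4) gave 15, 38 and 2, then 0 with sex as covariate, 0 in females, 11, 0, 0 and 0 in that order, and 0 to 11. P195A/- against P195A/+ (6) gave 49 and 289 for no filter and DESeq2, 2 in females, 16 with the covariate and without replicate 3, 74 without both, and 3 to 85. Leaving out P195A/P195A replicate 3 and P195A/+ replicate 2 together gave 1622, 1597, 126 and 319; these libraries were picked by a ratio that moves with the sides, so those counts are no support.

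The labels do not say what a replicate number stands for, and not every same-numbered pair of libraries had r over 0.1 (-0.0744 to 0.227, 4 of 18 above), so the numbers were not used as pairs. As a hint from the data, 8 of 13 libraries correlated best with their own number. With a replicate block 2 genes passed between the sides, 2 in P195A/P195A against P195A/+ and 2 for weight. Weight within genotype (0) gave 4 with no filter, 1 by DESeq2, 1 with a side term, and 0 to 1 leaving out each library. At unadjusted p under 0.05 (451), weight gave 1210 with the replicate block, 1145 without a genotype or side term, 771 with no filter and 689 with the ratio as covariate. The share of same sign in disjoint pairs, at p under 0.05, was 66.8% for P195A/P195A against P195A/+ and 75.1% for P195A/- against wild type as choosing pairs; leaving out each library gave 54.1 to 82.0%, 61.7 to 81.8%, 49.1 to 77.0% and 65.6 to 85.6% in the order of the text.

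Mean editing turned to -0.0872 points at 5 reads and ran from -0.218 to 0.305 leaving out each library, with exact permutation p of 0.495 to 0.981, with values of -0.141 and -0.218 when wild-type replicate 1 or 2 was omitted, and -0.0203 and -0.0144 for P195A/P195A replicates 1 and 3. Editing sites passing were 0 to 1 leaving out each library. Adarb1 turned to 0.0176 in females, 0.0973 with the covariate and without replicate 3, 0.0141 without replicates 2 and 3, and 0.00835 without P195A/+ replicate 3 (-0.0751 to 0.00835 leaving out each library). Without a genotype term the weight slopes of Sycp2 (-0.0295) and Gm21887 (-0.0103) reversed. Ubap2l did not pass with 1 coefficient per side (adjusted p = 0.251), with age class (0.561) or in females (0.0953), and passed in the other alternatives. The alternatives with the ratio, thinning, joint omissions, disjoint pairs, limma for editing, single site classes and animals left out by weight were chosen after seeing the data. The causes of these changes were not tested.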
